A study of Mus musculus with 28 samples.

Results

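Tropifexor at its high dose and obeticholic acid (OCA), both agonists of the bile acid receptor FXR, were compared by what each did to gene expression in the fatty, inflamed and scarred liver of mice with nonalcoholic steatohepatitis (NASH). For every gene, the log2 ratio of OCA-treated livers to their vehicle livers was subtracted from the log2 ratio of high-dose tropifexor livers to their vehicle livers, so that a positive difference means a higher effect of tropifexor. No size of effect chose the genes compared, but a usable test under both drugs was required, which depends on the measured data. Of 47719 genes listed, 15206 had a usable test under both drugs, and all of these entered the comparison.

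The animals were male C57BL/6 mice, about 6 weeks old at the start. All 4 groups compared were fed for 26 weeks on a NASH diet in which fat gave 40% of the calories and which held 22% fructose and 2% cholesterol, and were then dosed by mouth once a day for 4 weeks. The groups were tropifexor (LJN452) at 0.9 mg/kg, the vehicle group of tropifexor, OCA at 25 mg/kg and the vehicle group of OCA, with 4 animals in each. Tropifexor at 0.1 and 0.3 mg/kg and lean controls on a diet with 10% of calories from fat, without fructose or cholesterol, are used only where named. The doses of the drugs were not matched to each other, so every difference is one between these doses. The 0.9 mg/kg dose was assigned to the group titled high because doses and titles rise in the same order, and the vehicle groups were read from the titles, since the treatment field of those samples names the drug.

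Each group is represented by 1 FPKM value per gene (fragments per kilobase of transcript and per unit of sequencing depth), the group value over 4 livers in the authors' deposited tables, from which all FPKM below are taken. Values per animal were not used here, so the animals' spread is known only as the authors' Cuffdiff statistics carry it, and library depths are unknown. The liver label held: Alb, serum albumin, lay between 32178 and 45639 FPKM in the 4 groups. Of 7 pancreas genes Prss1, Cpa1, Pnlip and Amy2a5 were listed at 0 in all 4 groups, while Cela1, an elastase, lay between 6.94 and 8.34 FPKM and Ctrb1 between 0.341 and 1.88. Of 5 fat cell genes Adipoq, Lep, Plin1 and Retn were below 1 FPKM, and Cfd, adipsin, had 0.519 FPKM in tropifexor livers and 30.9 in their vehicle livers, against 2.57 FPKM in OCA livers and 46.5 in theirs, so that both drug groups were low for it. Erythrocyte genes were similar, with Hbb-bs between 145 and 186 FPKM.

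FXR is a nuclear receptor of hepatocytes and gut that bile acids activate. In hepatocytes it induces the repressor SHP and bile salt exporters and lowers the enzymes that make bile acids from cholesterol, and in the ileum it induces a hormone of the FGF family that acts on the liver in the same direction. OCA is a modified bile acid, whereas tropifexor does not have a bile acid skeleton.

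The standard error (SE) of each effect was derived from the authors' test statistic and scaled to match their p-values, the variances of the 2 effects were added, and a normal test with Benjamini-Hochberg adjustment over the 15206 genes gave the calls (adjusted p under 0.05). The drug groups and their vehicle groups share no animals between the 2 effects. By this test 654 genes were higher under tropifexor, 4.3% of those tested, and 1087 were lower, 7.15%. With the authors' statistic left unscaled, which makes each SE about 2.03 times as wide, 114 were higher and 143 lower. Below, "rose" and "fell" mark an effect of a drug over its own vehicle that the authors' deposited table calls at a q under 0.05. Under tropifexor 1570 of 15818 genes rose (9.93%) and 2445 fell (15.5%), and under OCA 284 of 15706 rose (1.81%) and 350 fell (2.23%). The median difference over all genes was -0.05 (log2).

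The 3 promoters below hold a near match to the palindrome that FXR binds together with RXR, searched as AGGTCA and TGACCT with any 1 base between them, which reads the same on both strands. The search covered the RefSeq windows of 250 bases before to 50 bases after each gene's start (GRCm38.p6), of which 10417 tested genes had one. No tested gene held an exact match. With up to 1 mismatch over the 12 fixed bases it was found in 3 of 442 genes with a higher difference (0.679%), 1 of 769 with a lower one (0.130%) and 6 of 9206 not called (0.0652%), against 10 of all 10417 tested genes (0.096%). Counted by window rather than by gene, the share was 0.0822% of all 32851 windows. With up to 2 mismatches the share was 2.04% of the higher genes, 0.780% of the lower ones and 1.24% of all tested genes, and none of the 9 matched genes among the 12 largest higher differences had a match. The 3 genes with a higher difference are shown 5′ to 3′ on the gene's own strand, with the match in capitals. They are Steap3, a ferrireductase of iron uptake, Abcb11, the bile salt export pump, and Rdh9, a retinol dehydrogenase, and were picked for the match.
Steap3, chr1:120270221-120270520, minus strand: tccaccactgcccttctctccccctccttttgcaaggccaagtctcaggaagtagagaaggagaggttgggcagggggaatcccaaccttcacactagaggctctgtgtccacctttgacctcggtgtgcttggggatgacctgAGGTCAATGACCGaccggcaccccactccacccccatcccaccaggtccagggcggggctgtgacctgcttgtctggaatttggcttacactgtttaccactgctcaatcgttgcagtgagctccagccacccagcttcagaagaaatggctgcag
Abcb11, chr2:69342567-69342866, minus strand: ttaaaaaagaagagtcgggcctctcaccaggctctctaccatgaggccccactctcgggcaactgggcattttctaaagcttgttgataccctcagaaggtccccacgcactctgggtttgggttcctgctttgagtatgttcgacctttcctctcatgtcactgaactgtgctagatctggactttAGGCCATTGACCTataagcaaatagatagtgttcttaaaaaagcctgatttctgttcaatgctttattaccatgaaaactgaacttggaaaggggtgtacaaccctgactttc
Rdh9, chr10:127776155-127776454, plus strand: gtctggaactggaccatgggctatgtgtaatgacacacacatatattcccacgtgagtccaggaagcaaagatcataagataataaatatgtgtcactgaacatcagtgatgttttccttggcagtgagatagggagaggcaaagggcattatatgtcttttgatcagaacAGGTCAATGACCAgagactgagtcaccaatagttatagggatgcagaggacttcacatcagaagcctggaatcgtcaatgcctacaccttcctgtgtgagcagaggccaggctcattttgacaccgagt
Counted from the first base of the searched letters, the mismatches were T13G in Steap3, T4C in Abcb11 and T13A in Rdh9, and the matches began 106, 63 and 79 bases before the start. Steap3 had 45.4 FPKM in tropifexor livers and 9.61 in their vehicle livers, against 13.9 FPKM in OCA livers and 10.2 in theirs, and its difference was 1.79 (SE 0.18). Rdh9 had 111 FPKM in tropifexor livers and 33.4 in their vehicle livers, against 59.9 FPKM in OCA livers and 33.3 in theirs, with a difference of 0.88 (SE 0.18). In both genes each drug's group stood above its vehicle group, and the authors' deposited tables call both rises. A match in these windows is a description of letters, not of binding.

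Most genes that OCA moved were moved the same way by tropifexor, and many genes called under tropifexor were not called under OCA. Of the 279 genes that rose under OCA among those tested, 189 also rose under tropifexor, which is 67.7% of the OCA genes and 12.7% of the 1490 tropifexor genes. Of the 343 that fell under OCA, 252 also fell under tropifexor, 73.5% of the OCA genes and 10.5% of the 2408 tropifexor genes. Over the 542 genes called under OCA with at least 1 FPKM in a group of each table, 88.9% had the same sign under both drugs, the median size of the effect was 1.05 (log2) under tropifexor and 0.68 under OCA, and the effects correlated with r = 0.737 across genes, which are not independent replicates. Rises and falls are pooled in that value: within the 244 rises r was 0.503, and within the 298 falls 0.532. Over all 15206 genes, on log2(FPKM + 1), r was 0.360 and 63.4% had the same sign under both drugs. The median sizes there were 0.22 under tropifexor and 0.11 under OCA.

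**Figure D1:**
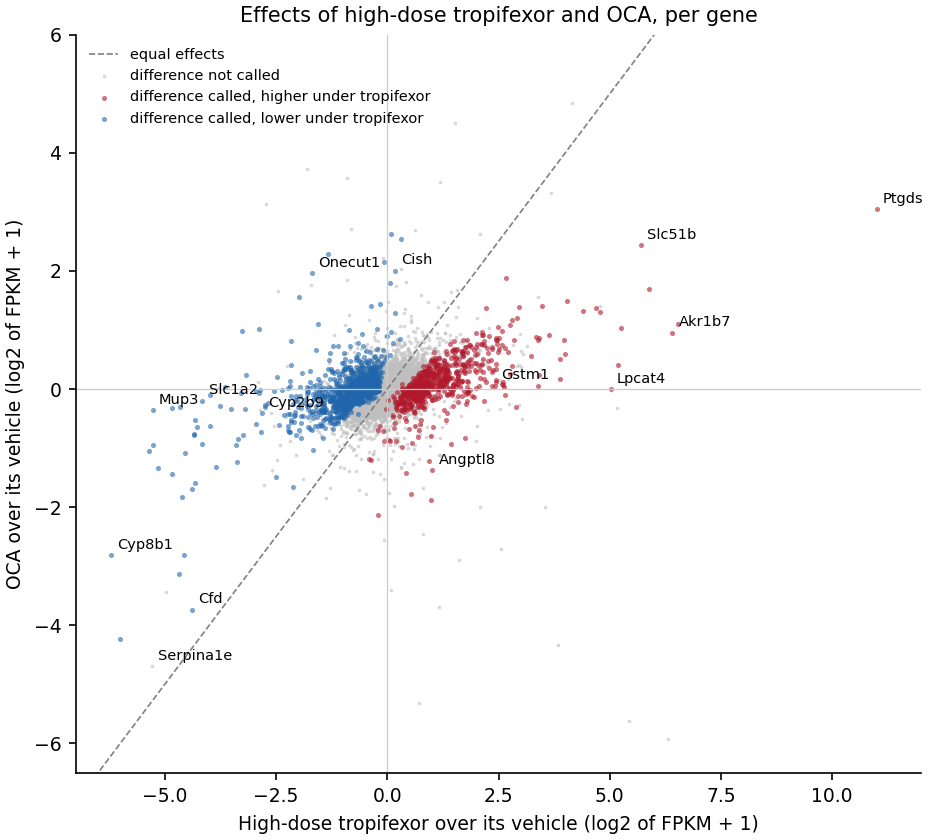
Effect of high-dose tropifexor over its vehicle (horizontal, log2 of FPKM + 1) against the effect of OCA over its vehicle (vertical, same scale), 1 point per gene for 15206 genes. Red points are the 654 genes with a called higher difference, blue points the 1087 with a called lower one, grey points were not called, and the dashed line marks equal effects. The cloud is wider along the tropifexor axis, and Onecut1 and Angptl8 lie in the quadrants where the drugs moved a gene in opposite directions.

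The called differences fall into few patterns. In 1362 of the 1741, tropifexor moved the gene and the authors' test did not call OCA, 477 higher and 885 lower. They were part of 3414 tested genes called under tropifexor and not under OCA, and the rest had no called difference. In 832 of the 1362 both effects had the same sign. In 205, both drugs moved the gene the same way and tropifexor moved it further, 111 higher and 94 lower. In 43, the drugs moved the gene in opposite directions. All 43 such genes had a called difference, which is largely fixed by both effects being called with opposite signs. In 32, OCA moved the gene and tropifexor was not called, in 98 neither effect was called, and in 1 both moved it the same way with the larger effect under OCA. The difference was not called for 78 of the 189 shared rises and 157 of the 252 shared falls.

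The classical FXR targets Nr0b2, Abcb11, Abcb4 and Slc51b were higher under tropifexor, and FXR's own gene was lower. Of a list of 20 FXR target and pathway genes 18 were tested: 8 rose and 4 fell under tropifexor, 3 rose and 1 fell under OCA, and the difference was higher for 7 and lower for 3, with a median of 0.19. Nr0b2, which encodes SHP, had 182 FPKM in tropifexor livers against 29.5 in their vehicle livers, and 73.3 FPKM in OCA livers against 43.4 in theirs. It rose under both drugs, by 2.63 under tropifexor and by 0.75 under OCA, a difference of 1.87 (SE 0.18). Slc51b, the beta subunit of the basolateral bile acid exporter, had 222 FPKM in tropifexor livers and 3.28 in their vehicle livers, against 24.6 FPKM in OCA livers and 3.73 in theirs. Its effect was 6.08 under tropifexor and 2.72 under OCA, a difference of 3.36 (SE 0.34); 12.8% of its exon bases overlap Rasl12 on the opposite strand. The libraries were stranded, and the labels do not say whether reads were counted by strand, so large overlaps are stated. Osgin1, an oxidative stress response gene, rose by 3.41 under tropifexor and stood at 0.25 under OCA (difference 3.17, SE 0.25), and Fetub, a secreted liver protein, had a difference of 1.05 (SE 0.20).

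The lower members of that list were Ugt2b1, a glucuronosyltransferase, at -3.81 (SE 0.20), the P450 Cyp2b13 at -4.39 (SE 0.86) and Nr1h4, which encodes FXR itself, at -1.55 (SE 0.18). Nr1h4 had 18.7 FPKM in tropifexor livers and 60.8 in their vehicle livers, against 53.1 in OCA livers and 59.1 in theirs. The receptor's own transcript thus fell by 1.70 under tropifexor and stood at -0.16 under OCA. Cyp2b13 was not called in the authors' deposited table of either drug and belongs to a family of close paralogs, so its value is uncertain. Left unscaled, the error gave 4 higher and 2 lower members of the list.

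Within bile acid synthesis the enzymes moved both ways: Cyp7a1, Cyp8b1, Ch25h and Scp2 were lower under tropifexor, and Akr1d1, Cyp39a1 and Cyp2c70 higher. Of 15 tested genes 4 rose and 7 fell under tropifexor, 2 rose and 3 fell under OCA, and the difference was higher for 3 and lower for 4 (median 0.09). Cyp8b1, the sterol 12-alpha-hydroxylase that sets the share of cholic acid, had 0.242 FPKM in tropifexor livers and 90.3 in their vehicle livers, against 8.76 FPKM in OCA livers and 67.9 in theirs. Both drug groups were below their vehicle groups, with effects of -8.55 under tropifexor and -2.95 under OCA and a difference of -5.59 (SE 0.28). Cyp7a1, the rate-limiting enzyme, had 0.758 FPKM in tropifexor livers and 49.6 in their vehicle livers, against 16.3 FPKM in OCA livers and 45.8 in theirs, and a difference of -4.54 (SE 1.13). Cyp7b1, of the alternative pathway, fell under both drugs, with 22.2 FPKM in tropifexor livers and 44.5 in their vehicle livers, against 25.2 FPKM in OCA livers and 50.9 in theirs, and the difference of 0.01 had a 95% interval of -0.38 to 0.41. Of the higher enzymes, the steroid reductase Akr1d1 had a difference of 1.12 (SE 0.22) and Cyp2c70, which makes muricholic acids in mice, 1.31 (SE 0.23). Cyp8b1 was the 1 gene of this list still called when the error was left unscaled.

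The called differences were lower among uptake carriers and higher among export carriers. Of 5 tested uptake genes the difference was lower for 3, with a median of -0.74. Slc10a1, the sodium-dependent bile acid importer NTCP, had 23.0 FPKM in tropifexor livers and 234 in their vehicle livers, against 266 FPKM in OCA livers and 278 in theirs. The tropifexor group stood apart from the other 3 groups, and the difference was -3.29 (SE 0.21). Slco1a1, an organic anion importer, had 0.296 FPKM in tropifexor livers and 24.1 in their vehicle livers, against 13.1 FPKM in OCA livers and 21.0 in theirs, a difference of -5.66 (SE 0.28), while Slco1b2 of the same superfamily had -0.14 with a 95% interval of -0.73 to 0.46. Of 9 tested export genes the difference was higher for 4, with a median of 0.53. Abcb11 had 662 FPKM in tropifexor livers and 149.9 in their vehicle livers, against 253 FPKM in OCA livers and 149 in theirs, effects of 2.14 under tropifexor and 0.76 under OCA, the second not called in the authors' deposited table, and a difference of 1.38 (SE 0.41). Abcb4, the phosphatidylcholine exporter, had a difference of 1.18 (SE 0.22) and Atp8b1, a flippase of the canalicular membrane, 0.86 (SE 0.18), or 0.55 through lean control. Slco1a1, Slc10a1 and Slc51b were the carriers still called with the error unscaled.

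The 12 largest differences upward were led by Ptgds, the lipocalin-type prostaglandin D synthase (chromosome 2, 25466709 to 25470046, GRCm38). It had 9252 FPKM in tropifexor livers and 3.53 in their vehicle livers, against 31.6 FPKM in OCA livers and 2.96 in theirs. It rose under both drugs, by 11.36 under tropifexor and by 3.42 under OCA, and the difference of 7.94 (SE 0.31) corresponds to a ratio 245 times as large. Akr1b7, an aldo-keto reductase, had 154 FPKM in tropifexor livers and 0.825 in their vehicle livers, against 2.47 FPKM in OCA livers and 0.789 in theirs, a difference of 5.90 (SE 0.32); 27.2% of its exon bases overlap Gm13857 on the opposite strand.

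For Lpcat4, which reacylates lysophospholipids, 1 group stood out. It had 70.1 FPKM in tropifexor livers and 1.19 in their vehicle livers, against 1.04 FPKM in OCA livers and 1.04 in theirs, so the tropifexor group was high and the other 3 lay close together, and the difference was 5.89 (SE 0.40). Alpl, tissue-nonspecific alkaline phosphatase, followed the same pattern with 182 FPKM in tropifexor livers and 16.5 in their vehicle livers, against 20.8 FPKM in OCA livers and 20.02 in theirs and a difference of 3.41 (SE 0.78). Dysf, a membrane repair protein, had 3.80 (SE 0.55), and Sema3b, a secreted semaphorin, 3.55 (SE 0.45); OCA's effect was not called for either in the authors' deposited table. The chloride channel family member Clic3, the transmembrane gene Tmem141 and the serine protease Tmprss4 had differences of 4.42 (SE 1.13), 4.26 (SE 0.42) and 3.72 (SE 0.32). The authors' deposited tables call all 3 under tropifexor, and Tmem141 and Tmprss4 also under OCA. Cxcl13, the B cell chemokine, was also among the 12 and is described with the opposite responses.

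The 12 largest differences downward were led by Cyp2b9, a P450 that is higher in female than in male mouse liver, on chromosome 7, 26173411 to 26210661. It had 0.0156 FPKM in tropifexor livers and 6.11 in their vehicle livers, against 14.5 FPKM in OCA livers and 19.6 in theirs, and a difference of -8.18 (SE 0.99). Its vehicle groups already differed, and it has close paralogs, so the size is uncertain. Cidea, a protein of lipid droplet fusion, had 0.0621 FPKM in tropifexor livers and 21.4 in their vehicle livers, against 4.15 FPKM in OCA livers and 15.7 in theirs and a difference of -6.51 (SE 0.86). Nnmt, nicotinamide N-methyltransferase, had 1.22 FPKM in tropifexor livers and 62.6 in their vehicle livers, against 49.5 FPKM in OCA livers and 62.0 in theirs, and Paqr9, a membrane receptor of the progestin and adipoQ receptor family, 0.405 FPKM in tropifexor livers and 27.5 in their vehicle livers, against 14.4 FPKM in OCA livers and 25.1 in theirs. In both, the tropifexor group stood far below the other 3, and the differences were -5.35 (SE 0.34) and -5.28 (SE 0.21).

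Tlr5, the receptor for bacterial flagellin, had 0.157 FPKM in tropifexor livers and 7.996 in their vehicle livers, against 4.95 FPKM in OCA livers and 7.99 in theirs, with a difference of -4.98 (SE 0.46). Slc1a2, a glutamate transporter, had 0.710 FPKM in tropifexor livers and 29.4 in their vehicle livers, against 30.6 FPKM in OCA livers and 35.3 in theirs, with a difference of -5.17 (SE 0.91). Fam83a had -4.75 (SE 0.47), and the pseudogene Serpina4-ps1 -5.19 (SE 0.42). Mup11 (-5.15, SE 1.01) and Mup3 (-4.93, SE 0.35) belong to the major urinary proteins, near-identical paralogs whose reads may be split, and the authors' deposited table does not call Mup11 under tropifexor. Clic3, Alpl, Slc1a2 and Mup11 were the genes of these 24 that lost their call with the unscaled error.

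**Figure D2:**
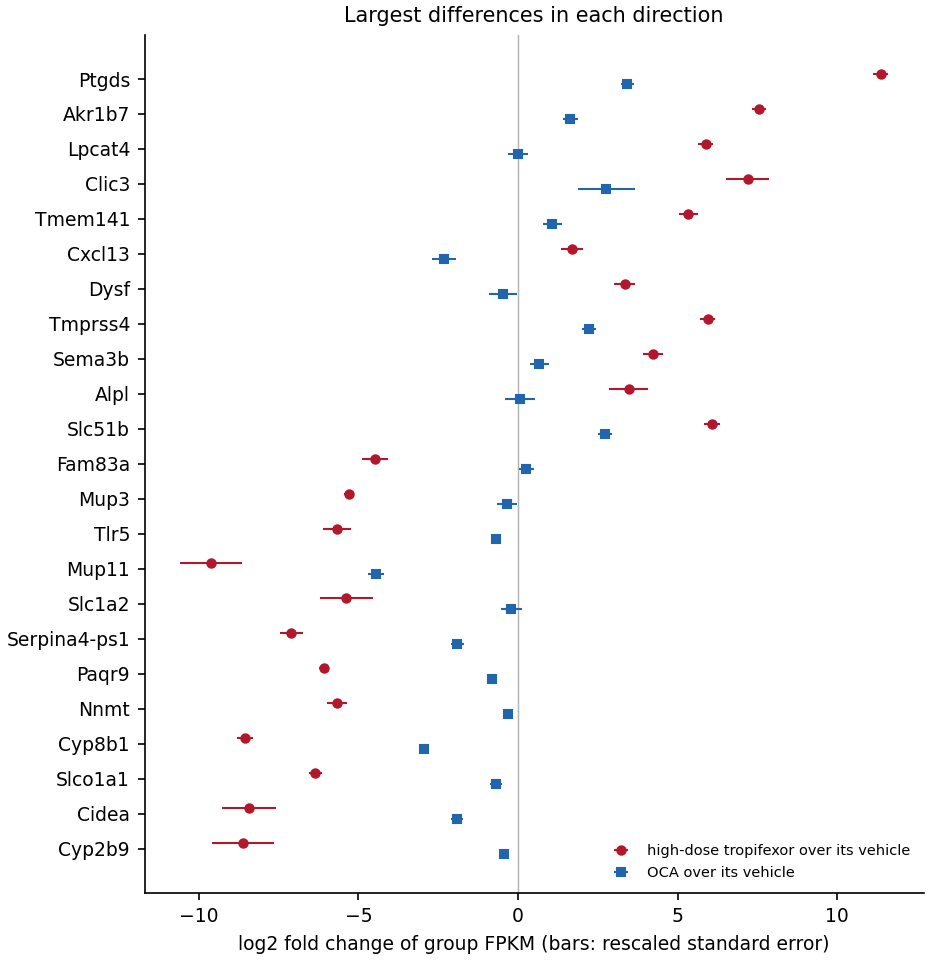
Log2 fold change over the drug's own vehicle for 11 of the 12 largest called differences upward and the 12 largest downward (genes down the page; red circles high-dose tropifexor, blue squares OCA, bars the scaled standard error). Ptgds is furthest right under both drugs, with 11.36 under tropifexor and 3.42 under OCA, and Lpcat4, Alpl, Slc1a2, Nnmt and Cyp2b9 have OCA effects near 0.

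Cholesterol synthesis genes were higher under tropifexor in all 14 called differences. Of 23 tested genes 19 rose and 1 fell under tropifexor, 8 rose under OCA, and the difference was higher for 14 and not called for 9, with a median of 0.80 against -0.05 over all genes and 4.3% of all genes higher. Sqle, squalene epoxidase, had 28.1 FPKM in tropifexor livers and 1.75 in their vehicle livers, against 3.34 FPKM in OCA livers and 1.38 in theirs. It rose by 4.00 under tropifexor and by 1.28 under OCA, a difference of 2.72 (SE 0.23). Cyp51, lanosterol demethylase, and Msmo1, the next oxidase, had differences of 1.68 (SE 0.48) and 1.62 (SE 0.30). Srebf2, the transcription factor of the pathway, had 0.71 (SE 0.18). Fdps, which makes farnesyl diphosphate, rose under both, by 1.38 under tropifexor and by 1.12 under OCA, and the difference of 0.26 had a 95% interval of -0.25 to 0.77. Ebp was the gene that fell under tropifexor, by 0.37. The unscaled error gave 3 higher genes, and the contrast through lean control 13.

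Sterol export and the LXR targets gave 1 called difference of 10, that of Scarb1, the HDL receptor, which had 285 FPKM in tropifexor livers and 111 in their vehicle livers, against 147 FPKM in OCA livers and 118 in theirs and a difference of 1.04 (SE 0.33). The sterol exporters Abcg5 and Abcg8 had 0.40 and 0.30, neither called, with 95% intervals of -0.23 to 1.02 and -0.35 to 0.96. The Scarb1 call was lost with the unscaled error. Over all genes 4.3% were higher and 7.15% lower, so 1 call of 10 is near that share.

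Called differences in fatty acid synthesis were lower under tropifexor, except for Thrsp. Of 16 tested genes 2 rose and 7 fell under tropifexor, 3 rose under OCA, and the difference was higher for 1 and lower for 7 (median -0.60). Scd1, the stearoyl-CoA desaturase, had 639 FPKM in tropifexor livers and 5836 in their vehicle livers, against 3709.8 FPKM in OCA livers and 4713 in theirs, a difference of -2.85 (SE 1.01). Elovl5 and Fads2, which elongate and desaturate polyunsaturated fatty acids, had differences of -1.47 (SE 0.27) and -1.21 (SE 0.22), each falling under tropifexor with an OCA effect of 0.51 and 0.50 that was not called. For Acacb, the mitochondrial acetyl-CoA carboxylase, and Fads1, a desaturase, OCA had the larger effect. Acacb had 12.3 FPKM in tropifexor livers and 12.5 in their vehicle livers, against 21.4 FPKM in OCA livers and 11.1 in theirs, so that it rose by 0.95 under OCA and stood at -0.02 under tropifexor. Acly, ATP citrate lyase, rose by 0.60 under tropifexor and by 0.64 under OCA, with a difference of -0.04 (95% interval -0.54 to 0.46). The higher member was Thrsp, a lipogenic nuclear protein, at 1.11 (SE 0.25), but its vehicle groups differed and through lean control its value was 0.24, not called. No call in this list held with the error unscaled, where the scaled one gave 1 higher and 9 lower at an unadjusted p under 0.05.

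Lipid droplet genes with a called difference were mostly lower. Of 14 tested genes 4 rose and 6 fell under tropifexor and 2 fell under OCA, and the difference was higher for 1 and lower for 4 (median -0.54). Cidec, which enlarges droplets, had 6.01 FPKM in tropifexor livers and 79.4 in their vehicle livers, against 47.2 FPKM in OCA livers and 60.3 in theirs, a difference of -3.37 (SE 0.24). Mogat1, a monoacylglycerol acyltransferase, had 0.584 FPKM in tropifexor livers and 9.57 in their vehicle livers, against 6.46 FPKM in OCA livers and 7.97 in theirs, and a difference of -3.73 (SE 0.69), with 12.8% of its exon bases under BC035947 on the opposite strand. Plin2, the main droplet coat protein of hepatocytes, had a difference of -0.62 that was not called (95% interval -1.18 to -0.07), and Plin5, the coat protein of oxidative tissue, was higher at 0.61 (SE 0.18). Cidea and Cidec were still called with the error unscaled.

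Genes of fatty acid oxidation and targets of PPAR alpha, the fasting receptor, were lower in 8 of 10 called differences. Of 20 tested genes the difference was higher for 2 and lower for 8 (median -0.43). The microsomal omega-hydroxylases led, with Cyp4a10 at 6.01 FPKM in tropifexor livers and 94.4 in their vehicle livers, against 69.8 FPKM in OCA livers and 85.0 in theirs. Its difference was -3.69 (SE 0.21), and that of Cyp4a14, a close paralog, -2.82 (SE 0.22). Ppara itself had -1.33 (SE 0.45) and Cpt1a, the carnitine shuttle enzyme, -0.86 (SE 0.21), whereas the mitochondrial dehydrogenases Acadm, Acadl and Acadvl were not called, at -0.33, -0.31 and -0.20. The 2 higher members were Fgf21, a secreted stress and fasting hormone, and Pdk4, an inhibitor of pyruvate dehydrogenase. Fgf21 had 35.5 FPKM in tropifexor livers and 5.13 in their vehicle livers, against 6.96 FPKM in OCA livers and 6.52 in theirs and a difference of 2.70 (SE 0.23). Pdk4 had 13.7 FPKM in tropifexor livers and 3.28 in their vehicle livers, against 1.94 FPKM in OCA livers and 2.51 in theirs and a difference of 2.43 (SE 0.26). An unscaled error gave 2 higher and 3 lower.

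Pericentral hepatocyte genes, which lie around the central vein, were lower. Of 10 tested pericentral genes 7 fell under tropifexor and 1, Cyp7a1, under OCA, and the difference was lower for 7 and higher for 1, with a median of -1.51. Glul, glutamine synthetase, had 132 FPKM in tropifexor livers and 382 in their vehicle livers, against 358 FPKM in OCA livers and 376 in theirs, a difference of -1.46 (SE 0.47). Oat, ornithine aminotransferase, had 48.2 FPKM in tropifexor livers and 363 in their vehicle livers, against 318 FPKM in OCA livers and 335 in theirs, a difference of -2.84 (SE 0.51), and Cyp2e1, the ethanol-inducible P450, 883 FPKM in tropifexor livers and 3294 in their vehicle livers, against 2715 FPKM in OCA livers and 3734 in theirs, a difference of -1.44 (SE 0.41). Lgr5, a receptor of the Wnt pathway, was lower at -1.57 (SE 0.36), while Axin2, another Wnt target, had -0.21 (95% interval -0.79 to 0.37). Cyp1a2 was the higher member at 0.57 (SE 0.19). Rhbg, an ammonium transporter, shares 61.4% of its exon bases with Gm38392 on its own strand and is uncertain. Through lean control 7 were lower, and the unscaled error called none of the 10 (normal test; 7 lower and 1 higher at an unadjusted p under 0.05 with the scaled error).

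Of 12 tested urea cycle and periportal genes, 5 rose under tropifexor and 4 under OCA, and the normal test called no difference, with 2 higher at an unadjusted p under 0.05 (median 0.02). Ass1, argininosuccinate synthase, had 833 FPKM in tropifexor livers and 332 in their vehicle livers, against 572 FPKM in OCA livers and 327 in theirs, a difference of 0.52 (95% interval 0.05 to 0.99). Gls2, the liver glutaminase, rose by 0.67 under tropifexor and by 0.64 under OCA, and its difference of 0.03 had an interval of -0.50 to 0.55. In glucose metabolism 2 of 11 differences were called, where 4.3% of all genes were higher and 7.15% lower, so the count is near that of all genes. Fbp1, of gluconeogenesis, was lower at -0.75 (SE 0.26) and Slc37a4, the glucose-6-phosphate transporter, higher at 0.53 (SE 0.19). G6pc, glucose-6-phosphatase, fell by 1.42 under tropifexor and by 1.89 under OCA, with a difference of 0.47 that was not called. Both calls of the glucose list were lost with the unscaled error (normal test; 2 higher and 4 lower at an unadjusted p under 0.05 with the scaled error). Through lean control 3 members were lower, and Slc37a4 stood at 0.25, not called.

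Genes that depend on growth hormone and STAT5 were lower in 7 of 9 called differences. Of 17 tested the difference was higher for 2 and lower for 7 (median -0.50). Among the 7 was Cish, at -2.16 (SE 0.54) but 0.32, not called, through lean control. Cyp2b9 was also among them, and its vehicle groups differed. Through lean control 2 members were higher and 6 lower. Mup3 had 96.1 FPKM in tropifexor livers and 3752 in their vehicle livers, against 2834 FPKM in OCA livers and 3621 in theirs, so that the tropifexor group alone was low, and the growth hormone receptor Ghr had a difference of -0.89 (SE 0.27). Igf1, the hormone's main secreted product, had -0.08 (95% interval -0.80 to 0.64). Elovl3, a fatty acid elongase, was higher at 1.39 (SE 0.19), rising by 0.35 under tropifexor and falling under OCA, at -1.03. Of 17 tested xenobiotic genes the difference was higher for 4 and lower for 3. Cyp2c29 had 7.32 FPKM in tropifexor livers and 342 in their vehicle livers, against 378 FPKM in OCA livers and 780.2 in theirs and -4.50 (SE 0.26), although its vehicle groups differed, and Nr1i2, the xenobiotic receptor PXR, was higher at 1.45 (SE 0.18). Cyp2a5, a coumarin hydroxylase, was higher as well, with 833 FPKM in tropifexor livers and 284 in their vehicle livers, against 423 FPKM in OCA livers and 408 in theirs. Cyp3a11, the classical PXR target, had -0.50 and was not called. Of the 9 and 7 calls in these lists, the unscaled error gave 3 and 3.

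Antioxidant genes were higher under tropifexor in 10 of 11 calls. Of 28 tested 13 rose and 3 fell under tropifexor, 3 rose and 1 fell under OCA, and the difference was higher for 10 and lower for 1, with a median of 0.31. Gstm1, a glutathione transferase, had 12794 FPKM in tropifexor livers and 2381 in their vehicle livers, against 2657 FPKM in OCA livers and 2555 in theirs. The tropifexor group was high and the other 3 lay close together, with a difference of 2.37 (SE 0.31). Gstm3 had 1847 FPKM in tropifexor livers and 117 in their vehicle livers, against 196 FPKM in OCA livers and 110.1 in theirs, a difference of 3.15 (SE 0.22); the transferases of this family are close paralogs and uncertain. Nqo1, a quinone reductase and classical target of the stress factor NRF2, had 26.3 FPKM in tropifexor livers and 7.98 in their vehicle livers, against 9.30 FPKM in OCA livers and 8.31 in theirs, a difference of 1.56 (SE 0.19). Txnrd1, thioredoxin reductase, and Cbr3, a carbonyl reductase, had 1.22 (SE 0.18) and 2.34 (SE 0.27).

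Other NRF2 targets were not called, among them Gclm, a subunit of the enzyme that starts glutathione synthesis, at 0.86 (SE 0.54), and Gclc, its catalytic subunit, at 0.14 (SE 0.20). Nfe2l2, which encodes NRF2, had 0.15 (95% interval -0.20 to 0.50). Hmox1, heme oxygenase 1, was the lower member at -0.67 (SE 0.20), having fallen under both drugs. Gpx2, a glutathione peroxidase, had 44.2 FPKM in tropifexor livers and 0.250 in their vehicle livers, against 0.510 FPKM in OCA livers and 0.136 in theirs and a difference of 5.56 (SE 1.55), but neither drug's effect is called in the authors' deposited tables. The unscaled error gave 6 higher members. Beside these, 4 of 14 stress genes of the endoplasmic reticulum and the integrated stress response were higher: Asns, asparagine synthetase, at 1.98 (SE 0.71; 1.73 and not called through lean control), Trib3 at 1.79 (SE 0.22), Atf3 at 1.24 (SE 0.24) and Atf4, the pathway's transcription factor, at 0.95 (SE 0.18). The chaperone Hspa5 fell by 0.62 under tropifexor and by 0.74 under OCA, and its difference of 0.13 was not called. Of these 14 stress genes 5 rose and 4 fell under tropifexor, and 1 rose and 3 fell under OCA. Their median difference was 0.04, and 4.3% of all genes were higher. For this list the unscaled error called 1 gene higher, and the contrast through lean control 3.

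Acute phase proteins, which hepatocytes secrete in inflammation, were lower where called, except Orm3. Of 16 tested 1 rose and 11 fell under tropifexor, 3 fell under OCA, and the difference was higher for 1 and lower for 6 (median -0.46). Saa1 and Saa2, serum amyloid A paralogs that may share reads, had differences of -3.85 (SE 0.23) and -4.44 (SE 0.22). Orm2, an orosomucoid, had 15.2 FPKM in tropifexor livers and 123 in their vehicle livers, against 96.4 FPKM in OCA livers and 99.3 in theirs, a difference of -2.98 (SE 0.19), whereas its paralog Orm3 was the higher member at 0.78 (SE 0.18). Lcn2, lipocalin 2, had 52.9 FPKM in tropifexor livers and 225 in their vehicle livers, against 184 FPKM in OCA livers and 209 in theirs, a difference of -1.90 (SE 0.20), and the fibrinogen chains Fga, Fgb and Fgg had -0.15, 0.07 and -0.30, none called. Among 12 secretory proteins Ttr, transthyretin, was lower at -1.32 (SE 0.40) and the other 11 were not called, near the 7.15% of all genes that were lower. Respiratory chain subunits were higher for 3 of 18, with 10 rising under tropifexor; Cox5b, of complex IV, had 0.81 (SE 0.26). The 3 calls were lost with the unscaled error, and through lean control 2 subunits were called.

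**Figure D3:**
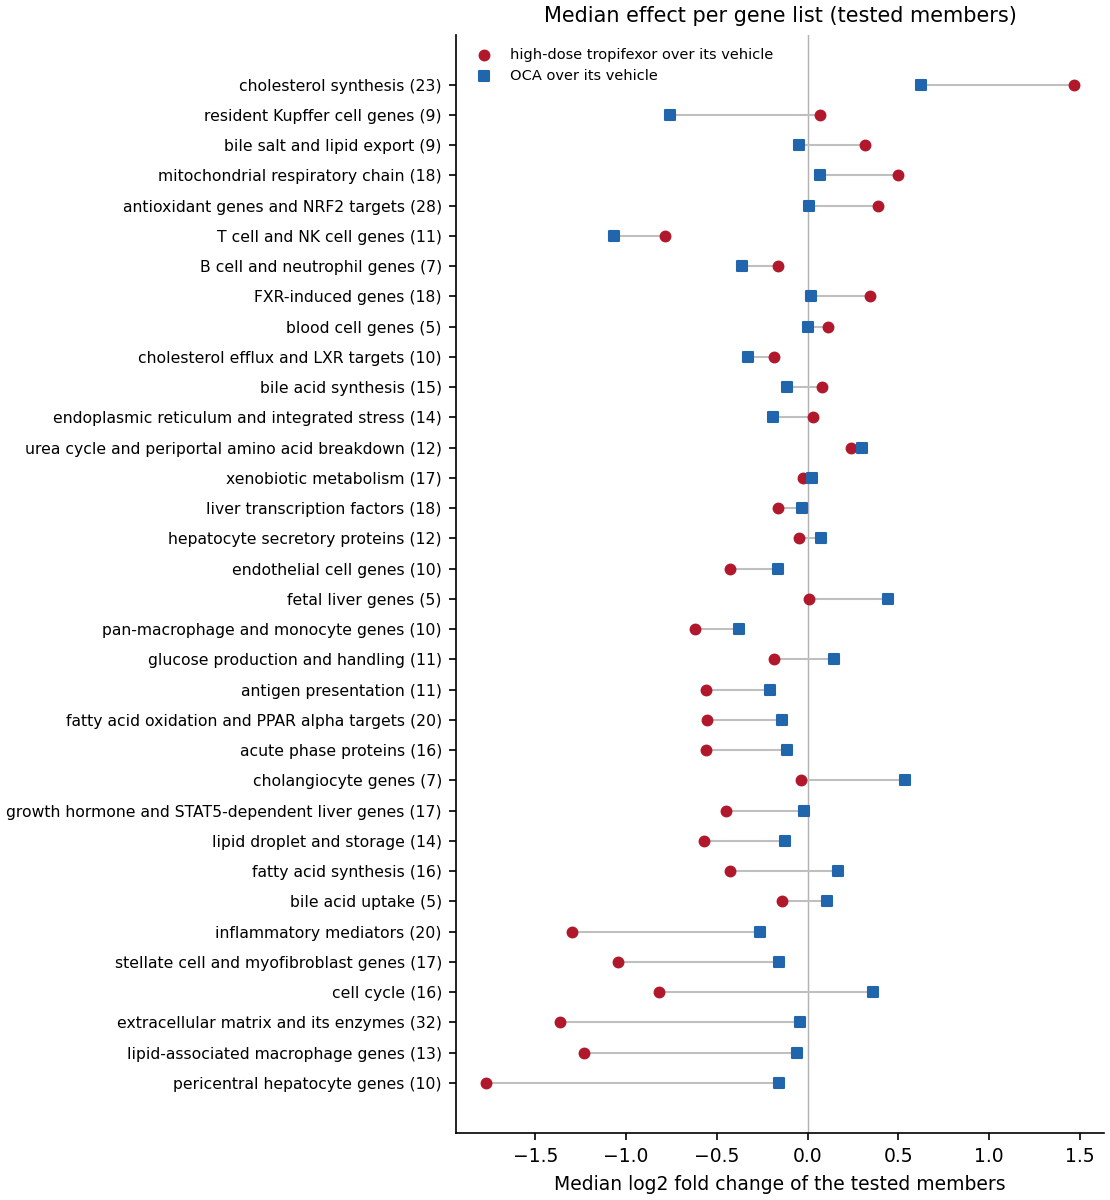
Median log2 fold change over the drug's own vehicle for the tested members of each gene list with at least 5 of them (number in brackets; red circles high-dose tropifexor, blue squares OCA, the grey line the gap between them), sorted by the median difference. Cholesterol synthesis stands at the top with a gap to the right for tropifexor, and matrix, lipid-associated macrophage and pericentral genes at the bottom, where the OCA medians lie near 0.

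Genes of lipid-associated macrophages, the cells that gather in fatty liver, fell under tropifexor and mostly were not called under OCA. Of 13 tested all 13 fell under tropifexor, 1 rose and 2 fell under OCA, and the difference was lower for 9 (median -1.47). Trem2, their lipid receptor, had 3.69 FPKM in tropifexor livers and 12.2 in their vehicle livers, against 10.1 FPKM in OCA livers and 10.1 in theirs, a difference of -1.72 (SE 0.26). Gpnmb, a glycoprotein of lipid-laden macrophages, had 3.72 FPKM in tropifexor livers and 19.4 in their vehicle livers, against 13.0 FPKM in OCA livers and 15.7 in theirs, a difference of -2.11 (SE 0.31), which through lean control was -1.79 and not called. The summed FPKM of the list was 399 in tropifexor livers and 654 in their vehicle livers, and 604 in OCA livers and 593 in theirs, with no member at 0. In whole liver, fewer cells of a type and less RNA per cell cannot be told apart, and the part of cell number was not tested. Of 10 general macrophage and monocyte genes the difference was lower for 3, led by Ccr2, the receptor that recruits monocytes, with 1.10 FPKM in tropifexor livers and 4.11 in their vehicle livers, against 2.95 FPKM in OCA livers and 3.56 in theirs and -1.64 (SE 0.22). Adgre1, which encodes F4/80, fell by 0.67 under tropifexor and by 0.78 under OCA, with a difference of 0.12 (95% interval -0.24 to 0.48). These lists had 2 and 1 lower genes with the unscaled error, and 7 and 3 through lean control.

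Called differences among resident Kupffer cell genes were mostly higher, where OCA had lowered them. Of 9 tested 1 rose and 2 fell under tropifexor, 5 fell under OCA, and the difference was higher for 3 and lower for 1 (median 0.61). Timd4, a receptor for dead cells, had 1.99 FPKM in tropifexor livers and 1.68 in their vehicle livers, against 0.901 FPKM in OCA livers and 2.02 in theirs, a difference of 1.41 (SE 0.30), and Vsig4, a complement receptor, 33.5 FPKM in tropifexor livers and 32.1 in their vehicle livers, against 22.9 FPKM in OCA livers and 43.0 in theirs, a difference of 0.97 (SE 0.20) and 0.56 through lean control. Folr2 was higher too, but 63.1% of its exon bases overlap Gm10602 on the opposite strand, and through lean control its call was lost. Clec4f, the most specific of these markers in mouse liver, had 0.55 (95% interval 0.01 to 1.08). The summed FPKM was 286 in tropifexor livers and 366 in their vehicle livers, and 252 in OCA livers and 369.9 in theirs, with no member at 0. The unscaled error called none of the 9 (normal test; 5 higher and 1 lower at an unadjusted p under 0.05 with the scaled error), and through lean control 2 were higher.

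Inflammatory mediators with a called difference were all lower under tropifexor, among them monocyte and neutrophil chemokines. Of 20 tested 1 rose and 15 fell under tropifexor, 1 rose and 4 fell under OCA, and the difference was lower for 6 (median -0.76). Ccl2, which attracts monocytes, had 2.93 FPKM in tropifexor livers and 8.75 in their vehicle livers, against 8.48 FPKM in OCA livers and 8.29 in theirs, so that only the tropifexor group was low, with a difference of -1.61 (SE 0.27). Cxcl1, a neutrophil chemokine, had 3.27 FPKM in tropifexor livers and 13.3 in their vehicle livers, against 13.3 FPKM in OCA livers and 16.3 in theirs, a difference of -1.73 (SE 0.23), and Il1rn, the interleukin 1 receptor antagonist, -1.68 (SE 0.29). Of the 20 mediators the unscaled error called 1 lower. Through lean control 6 were called lower, 5 of which were among the calls above. The T cell chemokines had no called difference. Ccl5 fell by 1.05 under tropifexor and by 1.39 under OCA, with a difference of 0.34 (95% interval -0.15 to 0.83), and Cxcl9 had -0.18 (-1.08 to 0.73). Of 11 T cell and NK cell genes 5 fell under tropifexor and 6 under OCA, and the normal test called no difference, with 2 higher at an unadjusted p under 0.05. Cd8a, of cytotoxic T cells, had 0.213 FPKM in tropifexor livers and 0.492 in their vehicle livers, against 0.333 FPKM in OCA livers and 0.788 in theirs. Of 11 antigen presentation genes the same test called no difference, with 3 lower at an unadjusted p under 0.05, and 4 were called lower through lean control. The B cell, neutrophil, endothelial and blood cell lists had no called difference either, with 1 higher and 1 lower at an unadjusted p under 0.05, both endothelial.

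Matrix genes, which make up the scar, were lower under tropifexor in 25 genes, more than in any other list. Of 32 tested matrix genes 27 fell under tropifexor and 1 rose under OCA, and the difference was lower for 25 and not called for 7, with a median of -1.36 against -0.05 over all genes and 7.15% of all genes lower. Col1a1, the alpha 1 chain of type I collagen, had 2.09 FPKM in tropifexor livers and 13.6 in their vehicle livers, against 10.3 FPKM in OCA livers and 10.2 in theirs, with effects of -2.70 under tropifexor and 0.02 under OCA and a difference of -2.73 (SE 0.27). Col3a1, type III collagen, had 13.9 FPKM in tropifexor livers and 85.3 in their vehicle livers, against 63.0 FPKM in OCA livers and 64.2 in theirs, a difference of -2.59 (SE 0.37). In both, OCA livers and OCA vehicle livers were nearly equal. Lox, which cross-links collagen, had -1.82 (SE 0.35), the gelatinase Mmp2 -2.04 (SE 0.21) and the collagenase Mmp13 -2.77 (SE 0.30). Lum, a collagen-binding proteoglycan, fell by 1.09 under tropifexor and rose by 0.46 under OCA, a difference of -1.55 (SE 0.18). The basement membrane chains Col4a1 and Col4a2 had smaller differences of -0.87 and -0.85. Fn1, fibronectin, which hepatocytes also make, had 0.26 (95% interval -0.75 to 1.27), and Timp1, a protease inhibitor, -2.51 with an SE of 1.30, not called. Left unscaled, the error gave 11 lower genes, and the contrast through lean control 20 of 29.

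Called differences among stellate cell genes were lower as well. Of 17 tested 14 fell under tropifexor, none was called under OCA in the authors' Cuffdiff test (2 lower at an unadjusted p under 0.05), and the difference was lower for 8 (median -0.96). Acta2, smooth muscle actin, had 1.66 FPKM in tropifexor livers and 4.55 in their vehicle livers, against 4.23 FPKM in OCA livers and 4.88 in theirs, a difference of -1.25 (SE 0.24), and Pdgfrb, the growth factor receptor of these cells, -0.59 (SE 0.18). Lrat, which stores retinol in quiescent stellate cells, had 1.65 FPKM in tropifexor livers and 4.69 in their vehicle livers, against 4.30 FPKM in OCA livers and 6.29 in theirs, and a difference of -0.96 with an SE of 3.10, not called. The summed FPKM of the list was 118 in tropifexor livers and 205 in their vehicle livers, and 172 in OCA livers and 198 in theirs, and no marker of the list was at 0. The part of these cells in the matrix result was not tested. The unscaled error left 1 lower gene in the list.

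Cell cycle genes were lower by the vehicle contrast, and all but 1 of these were not called when the vehicle groups were left out. Of 16 tested 1 rose and 10 fell under tropifexor, 3 rose and 1 fell under OCA, and the difference was higher for 1 and lower for 10 (median -1.17). Mki67, a marker of dividing cells, fell by 0.82 under tropifexor and rose by 0.52 under OCA, a difference of -1.34 (SE 0.23). Ccnb2, a mitotic cyclin, had 0.976 FPKM in tropifexor livers and 1.77 in their vehicle livers, against 1.79 FPKM in OCA livers and 1.02 in theirs, so that the OCA vehicle and tropifexor groups were the low ones. Through lean control 1 member was higher and 1 lower, and the unscaled error called none (normal test; 1 higher and 10 lower at an unadjusted p under 0.05 with the scaled error). Ccnd1, the G1 cyclin, was the higher member, rising by 2.07 under tropifexor and by 0.79 under OCA, a difference of 1.28 (SE 0.28). Among 7 cholangiocyte genes Epcam was lower at -0.76 (SE 0.24), rising under OCA and not called under high-dose tropifexor. At the low and mid tropifexor doses Epcam stood at 1.63 and -0.96, both called. Spp1, osteopontin, which macrophages also make, was lower at -1.28 (SE 0.21), with 18.8% of its exon bases overlapping Gm42793 on its own strand. In the small remaining lists Cfd, adipsin, fell under both drugs and was lower at -1.72 (SE 0.37). Cd24a, a surface protein of immature cells, was lower at -0.66 (SE 0.22), and Ctrb1, a chymotrypsinogen, was higher at 2.27 (SE 0.65). For Cd24a and for Ctrb1 neither drug's effect was called in the authors' deposited tables.

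Of 18 liver transcription factors the difference was higher for 2 and lower for 5. Cebpa, a factor of mature hepatocytes, had 54.0 FPKM in tropifexor livers and 117 in their vehicle livers, against 108 FPKM in OCA livers and 113 in theirs, a difference of -1.05 (SE 0.20), and Foxa1, Foxa2 and Foxa3 were lower at -1.09, -0.71 and -0.51. Hnf4a, the central hepatocyte nuclear receptor, was higher at 0.89 (SE 0.24), as was Bhlhe40, a clock repressor, at 1.20 (SE 0.32). The clock gene Arntl fell by 0.64 under tropifexor and by 0.68 under OCA and its difference was 0.04 (95% interval -0.51 to 0.59). The fifth lower factor, Onecut1, answered the drugs in opposite directions, and was the 1 factor still called with the unscaled error. Through lean control 1 factor was higher and 4 were lower, Bhlhe40 stood at 0.50, not called, and Foxa1 at -0.64.

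Opposite responses at the high tropifexor dose concerned 43 genes, 12 that rose under tropifexor and fell under OCA and 31 the other way round. Tsku, a secreted liver protein, had 201 FPKM in tropifexor livers and 59.4 in their vehicle livers, against 42.2 FPKM in OCA livers and 76.0 in theirs, with effects of 1.76 under tropifexor and -0.85 under OCA and a difference of 2.61 (SE 0.32). Cyp17a1, the steroid 17-alpha-hydroxylase, had 1.56 FPKM in tropifexor livers and 6.54 in their vehicle livers, against 12.2 FPKM in OCA livers and 5.17 in theirs, so that tropifexor was the lowest group and OCA the highest, with a difference of -3.31 (SE 0.25). Sprr1a, an envelope protein of injured epithelium, had 2.21 FPKM in tropifexor livers and 13.3 in their vehicle livers, against 16.1 FPKM in OCA livers and 8.70 in theirs, a difference of -3.47 (SE 0.29). Apoa4, a secreted apolipoprotein, had 157 FPKM in tropifexor livers and 1168 in their vehicle livers, against 1135 FPKM in OCA livers and 562 in theirs, a difference of -3.91 (SE 0.32), with 69.8% of its exon bases under genes on the opposite strand, Gm10680 and Gm47528. Its level in OCA livers was near that in the tropifexor vehicle livers. The Apoa4 vehicle groups lay 1.09 apart (SE 0.30), not called, and through lean control the drug difference was -2.84. Dntt had a difference of -2.02 (SE 0.29). The lower tropifexor doses did not always share the direction of the high dose. At the mid and low dose Dntt stood at 1.37 and 1.19, both called, and Apoa4 at 0.04 and 0.39, neither called. Sprr1a had -2.61 and 2.09, both called, and Cyp17a1 0.18, not called, and -1.26, called. Tsku kept its direction, at 1.36 and 0.65, the second not called.

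For several of these genes the vehicle groups stood apart. Angptl8, an inhibitor of lipoprotein lipase complexes, had 73.7 FPKM in tropifexor livers and 36.0 in their vehicle livers, against 52.0 FPKM in OCA livers and 136 in theirs, so that both drug groups lay between the 2 vehicle groups. Its difference was 2.42 (SE 0.32) by the vehicle contrast and 0.52, not called, through lean control. Cxcl13 had 1.22 FPKM in tropifexor livers and 0.375 in their vehicle livers, against 0.236 FPKM in OCA livers and 1.18 in theirs and 4.02 (SE 0.50) by the vehicle contrast and 2.37 through lean control. Onecut1, a hepatocyte homeobox factor with 52.8% of its exon bases in Gm20649 on its own strand, had 3.97 FPKM in tropifexor livers and 15.1 in their vehicle livers, against 14.1 FPKM in OCA livers and 2.90 in theirs, with -4.22 (SE 0.25) by the vehicle contrast and -1.82 through lean control. Slc25a30, a mitochondrial carrier, had -2.11 (SE 0.19) by the vehicle contrast and -0.65 through lean control, and Nrep -2.26 (SE 0.20) and -1.08. Over the 42 opposite genes with a value through lean control, all 42 kept their sign and 37 were called, and in 10 the difference between the vehicle groups was itself called.

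**Figure D4:**
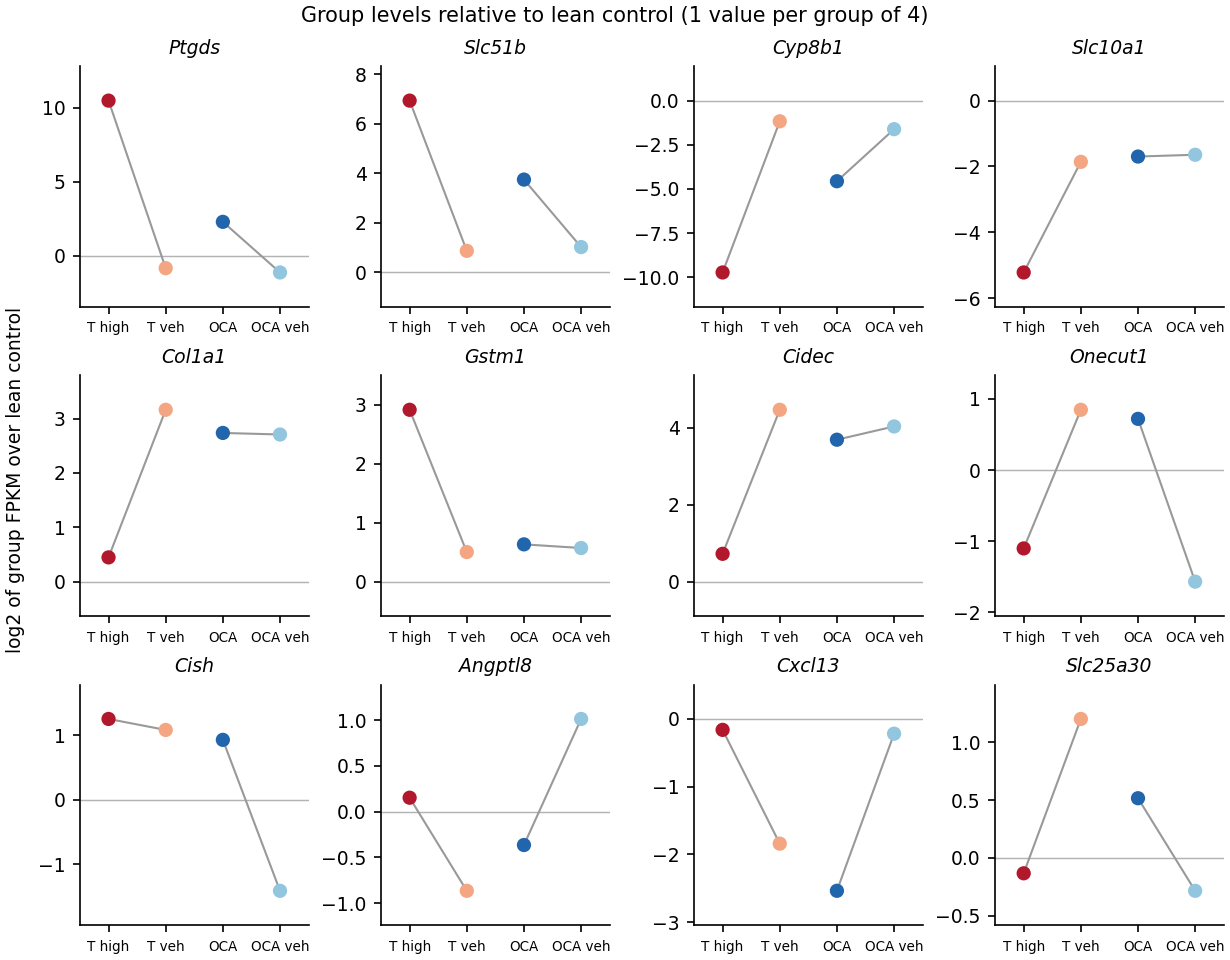
Log2 FPKM over lean control for 12 genes, 1 value per group of 4 animals (dark red high-dose tropifexor, light red its vehicle, dark blue OCA, light blue its vehicle; the lines join a drug group to its vehicle). The vehicle groups of Ptgds, Slc51b, Cyp8b1, Slc10a1, Col1a1, Gstm1 and Cidec lie close together, and those of Onecut1, Cish, Angptl8, Cxcl13 and Slc25a30 lie apart.

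The vehicle groups were compared through lean control to see how much they bear on the differences. Of 15230 genes 58 differed between the vehicle groups, 0.381%. The lean animals stand in both terms, where their error cancels, but the SE counts it in each term, so this count is likely too low, and the same holds for calls between the drug groups through lean control. Among the 1709 called differences with a vehicle value, the vehicle difference was also called for 34 and exceeded 0.5 of the drug difference in size for 90. When the drug groups were set against each other through lean control, with no vehicle group, 1638 of 1649 called differences kept their sign and 1271 were called in the same direction. Cish, a STAT5 target, was one that turned: it had 18.2 FPKM in tropifexor livers and 15.99 in their vehicle livers, against 14.6 FPKM in OCA livers and 2.89 in theirs, so that only the OCA vehicle group was low, and its difference was -2.16 (SE 0.54) by the vehicle contrast and 0.32 through lean control.

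Where both drugs moved a gene and the difference was not called, the interval shows how far apart they could be. Serpina1e, an alpha-1 antitrypsin paralog, had 4.07 FPKM in tropifexor livers and 198 in their vehicle livers, against 13.1 FPKM in OCA livers and 364 in theirs, effects of -5.61 under tropifexor and -4.80 under OCA and a difference of -0.81 (95% interval -1.44 to -0.18); through lean control, -1.67 was called. Csad, the enzyme of taurine synthesis, had 11.7 FPKM in tropifexor livers and 46.1 in their vehicle livers, against 14.3 FPKM in OCA livers and 43.0 in theirs, with a difference of -0.39 (-0.75 to -0.03). The Csad levels of the drug groups lay close together, as did those of the vehicle groups. Among the rises, Rbm24, an RNA-binding protein, had 0.37 (-0.28 to 1.01) and Gbp11, an interferon-induced GTPase, -0.50 (-0.88 to -0.11), which through lean control became 1.57 and was called. The remaining genes chosen by the same rule were Sectm1b, Rundc3b, Duox2 and Krt20 among the rises and Cyp2b10, Ces4a, Chil1 and Mup18 among the falls, where Sectm1b ran from -2.40 to 7.001 and Cyp2b10 from -3.65 to 0.85.

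OCA had the larger effect in 91 of the 1741 called differences, and in 45 of these its effect was called in the authors' deposited table. The list members among the 45 were Slc10a2, Acacb, Fads1, Timd4, Vsig4, Folr2, Epcam, Elovl3, Onecut1 and Cish. Slc10a2, the ileal and biliary bile acid importer, had 9.89 FPKM in tropifexor livers and 10.9 in their vehicle livers, against 16.2 FPKM in OCA livers and 10.7 in theirs and a difference of -0.74 (SE 0.18). In 34 of the 45 the drugs' effects had opposite signs, and in 11 they had the same sign with the larger effect under OCA.

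The lower tropifexor doses share the vehicle group with the high dose, so their values are given side by side. The difference from OCA was called for 802 genes at 0.1 mg/kg, 1824 at 0.3 mg/kg and 1741 at 0.9 mg/kg. Sqle had effects of 3.77, 4.23 and 4.00 at the low, mid and high dose, against 1.28 under OCA, so that the lowest dose already lay above OCA. Slc51b had 5.38, 6.01 and 6.08, against 2.72, and Nr0b2 1.87, 2.55 and 2.63, against 0.75. Col1a1 had -1.52, -3.03 and -2.70, against 0.02.

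Several genes did not follow the order of the doses. Slc10a1 had -1.53, 0.23 and -3.35 at the low, mid and high dose, against -0.06 under OCA, so that the mid dose lay near OCA. Ccl2 rose at the low dose, by 0.88, and fell at the others, at -1.62 and -1.58, against 0.03 under OCA. Mmp13 likewise had 0.77, -2.86 and -2.99, against -0.22. Cbr3 had 3.67, -0.14 and 2.21, against -0.13, and Nqo1 1.59, 0.30 and 1.72, against 0.16. Gstm1 did follow the order of the doses, at 0.49, 0.79 and 2.43, the first not called in the authors' deposited table, against 0.06 under OCA.

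**Figure D5:**
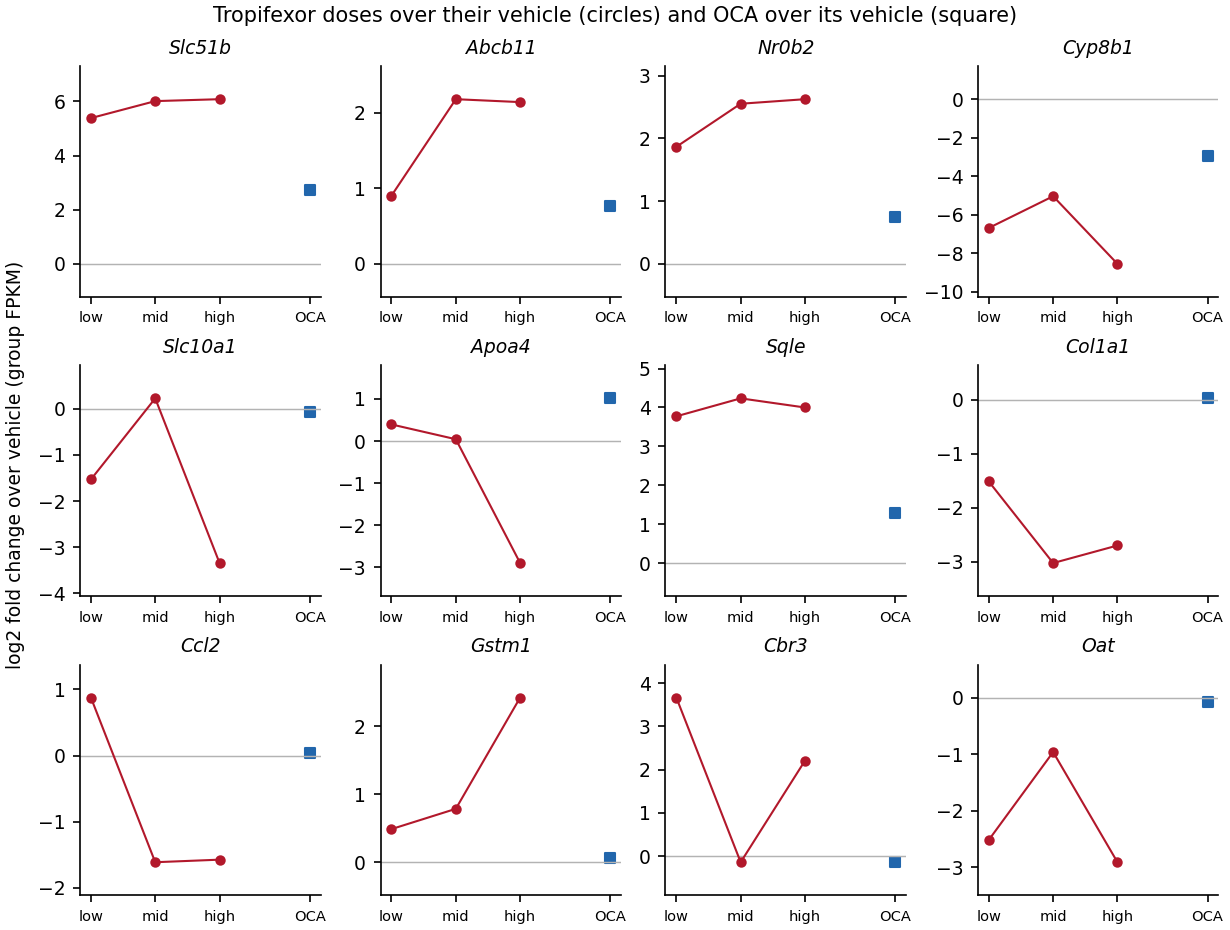
Log2 fold change over vehicle for 12 genes at low, mid and high tropifexor dose (0.1, 0.3 and 0.9 mg/kg, red circles joined by a line) and for OCA at 25 mg/kg over its own vehicle (blue square). Slc51b, Nr0b2 and Sqle lie above OCA at every dose, whereas Slc10a1, Cbr3 and Oat lie nearer to OCA at the mid dose than at the doses on either side.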

How the data were processed

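Liver RNA of 28 mice in 7 groups of 4 was sequenced from stranded poly(A) libraries per the labels, and 16 mice in 4 groups entered the main comparison. The submitters' processing notes name bcl2fastq, STAR 2.5.1b, Cuffnorm, Cufflinks 2.2.1, Cuffdiff and GRCm38, with roles not given in the sources used here. The deposited Cuffdiff tables hold 1 FPKM per gene and group, a log2 fold change, a test statistic (a score with no fixed range), a p-value and a q-value, all computed by the authors; 8 of 10 gene tables were used. Depth per library and values per animal are unknown here.

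Each log2 effect was recomputed from the authors' FPKM, and genes with the authors' status OK in both tables were kept (15243, less 37 whose values could not be used). The SE of an effect was the fold change over the test statistic, divided by 2.03 for tropifexor and 2.04 for OCA, the median ratio of the normal deviate of the deposited p-value to the statistic for p between 0.0002 and 0.9. The smallest p the authors' tables hold is 5e-05. The difference was tested against a normal distribution with Benjamini-Hochberg adjustment, in Python 3.11.15 with numpy 2.4.6, pandas 2.3.3 and scipy 1.17.1. The procedure was also run on simulated data. Their noise was drawn from the same scaled SE, so that run cannot check the scaling. Intervals are 95%. The animals are 4 per group, and whether same-numbered animals were paired was not used.

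Genes named are the 12 largest called differences in each direction with at least 1 FPKM in a group of each table (unnamed gene models left out), up to 10 opposite responses, the 6 strongest shared responses in each direction without a called difference, up to 4 members of each of 36 lists with the largest called differences, and 9 fixed genes, which gives 133. Other list members, Steap3, Rdh9 and the genes under OCA's larger effects were chosen after their values were seen. A few genes that the rule or the lists hold are not reported here. The genes and lists were chosen with earlier results of these data known. Exon overlaps come from the GRCm38 annotation, and motif sequences from RefSeq. Alternatives were the unscaled error, a gene-specific error, an FPKM minimum, pseudocounts, centring, lean control in place of the vehicle groups and a stricter threshold; those for the lists were chosen after seeing the data.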

Additional observations from a re-analysis of the deposited data

Results flagged for a closer look

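The effect of the NASH diet, each vehicle group over lean control, differed between the tropifexor vehicle group and the OCA vehicle group for 12 of the genes named in the report, by the same normal test as the drug difference. The values are log2 differences, tropifexor vehicle minus OCA vehicle, and both terms share the lean control group. Cish had 2.496 (SE 0.58), Onecut1 2.42 (SE 0.29), Gbp11 2.07 (SE 0.22), Slc25a30 1.48 (SE 0.19) and Nrep 1.19 (SE 0.20). The pseudogene Serpina4-ps1 had 1.10 (SE 0.24) and Saa2 0.79 (SE 0.20). Lower in the tropifexor vehicle group were Angptl8 at -1.88 (SE 0.32), Cyp2b9 at -1.65 (SE 0.20), Cxcl13 at -1.62 (SE 0.40), Cyp2c29 at -1.16 (SE 0.25) and Thrsp at -0.86 (SE 0.22).

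The sign of the drug difference through lean control was the same for Onecut1, Slc25a30, Nrep, Serpina4-ps1, Saa2, Angptl8, Cyp2b9, Cxcl13, Cyp2c29 and Thrsp, and was turned for Cish and Gbp11.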

How the results depend on the processing

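The 1741 called differences became 257 (114 higher, 143 lower) with the error left unscaled; 71 of the 133 named genes stayed on the same side of the threshold there. The other alternatives gave between 1197 calls (threshold of 0.01) and 1732 (pseudocount of 0.1), all within 1.5 times, and 1579 without the vehicle groups. The share of calls that were higher was 37.6%, against 42.9% with centred effects and 44.4% with the unscaled error. Without the vehicle groups 108 named genes kept direction and side, 15 lost their call (Angptl8, Thrsp, Slc37a4, Asns, C6, Folr2, Gpnmb, Ccl7, Ccnb2, Ccna2, Birc5, Plk1, Cox5b, Sdhb and Bhlhe40), Serpina1e gained one, and Gbp11 (1.57) and Cish (0.32) changed sign. With a pseudocount of 1, Cyp2b10 changed sign (0.64). The cause of these changes was not tested. The FPKM minimum changed neither direction nor call of the 118 named genes that passed it. No paired analysis was possible because the tables hold 1 value per group, and leaving out each animal was not run for the same reason. The p-values rest on the authors' estimate of the spread between 4 animals, and what depth limits is unknown.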

Other observations

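Several genes of the lists lacked a usable test under at least 1 of the drugs and are given as values. Fgf15, the FGF hormone that FXR induces in mouse ileum, had 5.01 FPKM in tropifexor livers and 0.0150 in their vehicle livers, and 0.0151 FPKM in OCA livers, while OCA vehicle livers were listed at 0. Plin4, a lipid droplet coat protein, had 0.947 FPKM in tropifexor livers and 13.7 in their vehicle livers, against 6.97 FPKM in OCA livers and 13.9 in theirs. Idi1, an isomerase of cholesterol synthesis, had 1.03 FPKM in tropifexor livers and 0.146 in their vehicle livers, against 0.188 FPKM in OCA livers and 0.105 in theirs. Altogether 31 list genes lacked a usable test under at least 1 of the drugs.

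Genes outside the lists in which OCA had the larger effect were picked after their values were seen. Mfsd2a, a transporter of lysophosphatidylcholine, had 53.7 FPKM in tropifexor livers and 50.9 in their vehicle livers, against 97.1 FPKM in OCA livers and 49.4 in theirs, a difference of -0.90 (SE 0.21). Chrna4, a nicotinic receptor subunit, had 1.39 FPKM in tropifexor livers and 1.69 in their vehicle livers, against 5.31 FPKM in OCA livers and 1.31 in theirs, a difference of -2.30 (SE 0.80). Aqp8, a water channel of hepatocytes, had 167 FPKM in tropifexor livers and 136 in their vehicle livers, against 187 FPKM in OCA livers and 104 in theirs, with a difference of -0.55 (SE 0.19) and -0.15 through lean control. The interferon-induced GTPase Gbp2b and the formyl peptide receptor Fpr2 had differences of 2.01 (SE 0.29) and 1.61 (SE 0.41), with the OCA group the lowest of the 4 in both. Through lean control the value was 1.002 for Gbp2b, whose vehicle groups differed, and 1.11 for Fpr2, which was not called.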
